A study of Arabidopsis thaliana with 9 samples.

Results

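The comparison described here sets the arf7 line against the control in the oscillation zone of the Arabidopsis thaliana root. Its members are the loci with at least 5 FPKM (fragment counts corrected for how long the transcript is and how deep the library is) in arf7 or in the control, and 12716 of the 31124 loci in the deposited table qualified. Total RNA was sequenced from oscillation zones that were cut from roots by hand at 7 dpi and frozen, with 3 samples of each line. The arf7 line is altered in AUXIN RESPONSE FACTOR 7, and the labels name neither its allele nor its ecotype. The potent line, which appears below for a few genes only, is altered in IAA18, again with no allele or ecotype given. The control is labelled WT of ecotype Col0 and was collected at the minimum of the oscillation. DR5::Luciferase, a reporter of auxin response, was followed in the plants, but the labels do not state at which phase the arf7 zones were collected, so genotype and phase cannot be told apart. Seedlings of all lines grew on Murashige and Skoog medium with sucrose under long days. The deposited table gives 1 pooled value per line and locus, without the spread between samples and with unknown depth, so the differences below have no replicate check other than the authors' own.

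ARF7 is a transcription factor that binds auxin response elements and activates genes when auxin removes its Aux/IAA repressors. In the root it works with its close relative ARF19 to start lateral roots, largely through LBD transcription factors. The oscillation zone is the region behind the root tip where auxin response rises and falls in cycles and where the sites of later lateral roots are laid down.

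The altered gene came first, as a check of the label. ARF7 (AT5G20730) had 2.64 FPKM in arf7 and 12.0 FPKM in the control, a log2 ratio of -1.84, so its transcript stood lower in the line named for it but not absent. The gene is not in the authors' deposited table for arf7. IAA18 (AT1G51950), the Aux/IAA repressor altered in the other line, had 19.1 FPKM in arf7 and 10.6 FPKM in the control and is not listed either. Here and below a log2 ratio is log2((arf7 + 1)/(control + 1)) of the pooled FPKM values. The words rose and fell are kept for genes that the arf7 comparison in the authors' deposited table contains.

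The zone held transcripts of several tissues, and their markers differed between the lines. In bulk samples a smaller number of cells of a type and less RNA per cell cannot be told apart. Markers of root hairs summed to 1637 FPKM in arf7 and 467 FPKM in the control over 8 genes, of which 6 rose. Endodermis markers, 8 genes, summed to 7703 FPKM in arf7 and 3004 FPKM in the control, and 7 xylem markers to 1646 FPKM in arf7 and 948 FPKM in the control. Most of the xylem sum came from IRX5, with 1192 FPKM in arf7 and 852 FPKM in the control. Its log2((arf7 + 1)/(control + 1)) was 0.48, while those of the other xylem markers ran from 1.59 to 2.37. The 4 pericycle markers summed to 94.4 FPKM in arf7 and 10.4 FPKM in the control, and 5 phloem markers to 47.6 FPKM in arf7 and 14.6 FPKM in the control. The pericycle sum includes LBD16 and GATA23, with 31.2 and 15.6 FPKM in arf7, against 1.92 and 4.77 FPKM in the control. Both also appear below among genes downstream of ARF7 and ARF19 or active in founder cells, so their values do not measure tissue makeup alone. The 4 markers of hairless epidermis stood at 99.1 FPKM in arf7 and 116 FPKM in the control, and PIN2, the only marker of cortex matched, at 6.83 FPKM in arf7 and 61.4 FPKM in the control. Root cap markers summed to 2.43 FPKM in arf7 and 1.56 FPKM in the control, with the root cap factors SMB and BRN1 listed at 0 in both. Meristem and quiescent centre markers summed to 0.767 FPKM in arf7 and 0.130 FPKM in the control, with PLT1 and PLT2 listed at 0 in both. Green shoot markers summed to 33.2 FPKM in arf7 and 13.7 FPKM in the control, most of it from the photosystem gene PSBO1. Hair, endodermis, xylem, pericycle and phloem markers thus stood higher in arf7, and the part of this tissue makeup in the gene differences below was not tested.

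The authors' deposited table lists 354 members as higher in arf7, or 2.78% of the 12716, and 496 as lower, or 3.90%. These shares are the background for the counts of listed genes in every list and family below. A further 145 listed loci stayed under 5 FPKM in both lines and are not members. By size alone, 2039 members (16.0%) had a log2 ratio of at least 1 and 1866 (14.7%) a log2 ratio of at most -1, and every listed member was among them. The median log2 ratio over the members was -0.04, with its quartiles at -0.63 and 0.61. At 4-fold or more, 166 of 568 members higher in arf7 and 168 of 459 members lower in arf7 are listed. The arf7 entries of the authors' deposited table have q-values between 0.00145 and 0.00945, and its smallest log2 fold change is 1.15, without a sign.

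**Figure D1:**
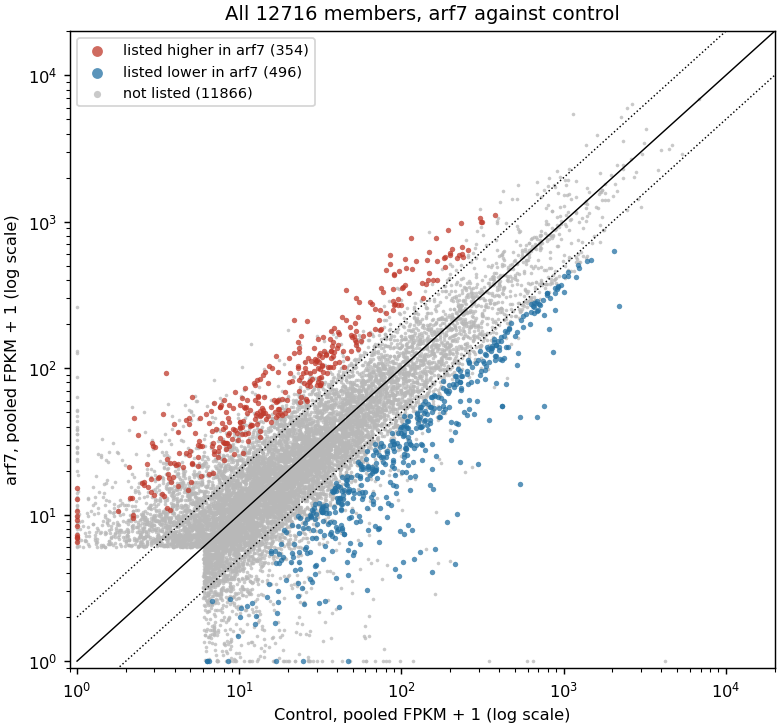
Pooled FPKM of each member in arf7 (vertical, log scale, 1 added) against the control (horizontal, log scale, 1 added), with the line of equality and dotted lines at 2-fold. The 354 loci listed as higher in arf7 and the 496 listed as lower lie outside the dotted lines, among many loci of the same size of difference that are not listed.

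The share of members that is listed was higher at higher levels. Among the 2761 members whose higher value lay between 5 and 10 FPKM, 31.2% were past 2-fold but 0.761% are listed. Among the 714 members that reached 300 FPKM, 40.9% were past 2-fold and 20.3% are listed. Of the members past 2-fold, 2.44% are listed between 5 and 10 FPKM, 52.2% between 100 and 300 FPKM and 49.7% from 300 FPKM up. It differed by kind of transcript as well. Of 159 small nucleolar RNA loci among the members, 96 were past 2-fold and none is listed, and of 14 tRNA loci 12 were past 2-fold and none is listed. Of 12072 protein-coding members, 29.8% were past 2-fold and 7.00% are listed.

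**Figure D2:**
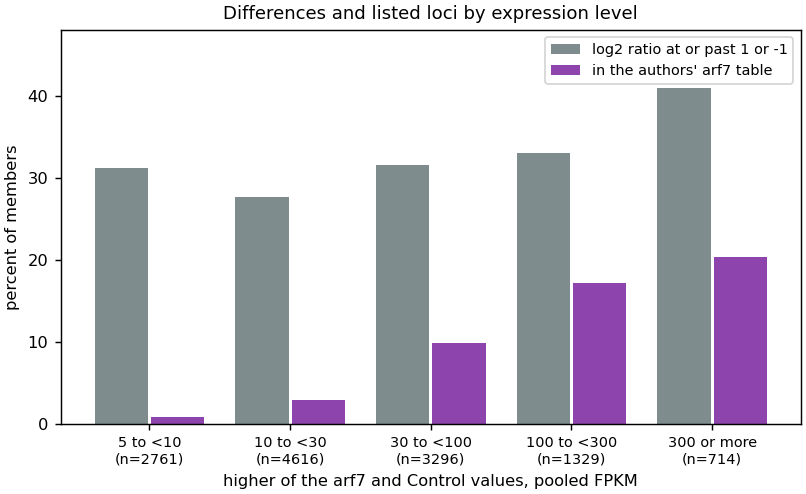
Percent of members (vertical) with a log2 ratio at or past 1 in either direction (grey) and percent in the authors' arf7 table (purple), by the higher of the arf7 and control values in FPKM (horizontal). The share past 2-fold lies between 27.6% and 40.9% in every class, while the listed share runs from 0.761% in the lowest class to 20.3% in the highest.

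Genes of auxin signalling are listed about as often as members in general. Of 23 members of that list, 1 rose, 1 fell and 21 are not listed, or 4.35% in each direction, against 2.78% higher and 3.90% lower over all members. By size alone 3 were past 2-fold higher and 4 past 2-fold lower, and the median log2 ratio was 0.13. IAA13 (AT2G33310), an Aux/IAA repressor, rose to 59.5 FPKM in arf7, against 15.4 FPKM in the control. TIR1 (AT3G62980), the founding auxin receptor, fell to 10.2 FPKM in arf7, against 31.6 FPKM in the control. Its relatives spread widely without being listed. AFB1 (AT4G03190) had 3.56 FPKM in arf7 and 81.0 FPKM in the control, and AFB3 had 6.28 FPKM in arf7 and 19.5 FPKM in the control. AFB2 had 41.7 FPKM in arf7 and 41.9 FPKM in the control, and AFB5 had 16.8 FPKM in arf7 and 19.1 FPKM in the control. The receptor family therefore held both the lowest log2 ratio of the list, -4.17 in AFB1, and a member at -0.01.

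The abundant Aux/IAA genes are not listed and lay at or above the control. IAA17 (AT1G04250) had 491 FPKM in arf7 and 455 FPKM in the control, IAA16 had 158 FPKM in arf7 and 155 FPKM in the control, and IAA14 had 107 FPKM in arf7 and 97.4 FPKM in the control. IAA9 (AT5G65670) had 393 FPKM in arf7 and 261 FPKM in the control, and IAA28 (AT5G25890), a repressor that acts in lateral root priming, had 289 FPKM in arf7 and 157 FPKM in the control. The log2 ratios of these 5 ran from 0.02 in IAA16 to 0.87 in IAA28. IAA27 showed the highest ratio of the list, 2.31, with 6.33 FPKM in arf7 and 0.479 FPKM in the control. ARF19 (AT1G19220), the partner of ARF7, had 5.52 FPKM in arf7 and 7.13 FPKM in the control. Neither IAA27 nor ARF19 is listed.

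Of 21 genes downstream of ARF7 and ARF19 or active in lateral root founder cells, 10 reached 5 FPKM in a line, and a gene low in both lines could not enter. LBD29 (AT3G58190), a direct target of both factors, is listed as higher, with 6.28 FPKM in arf7 and 0 in the control. LBD16 had 31.2 FPKM in arf7 and 1.92 FPKM in the control, MAKR4 14.5 FPKM in arf7 and 0.250 FPKM in the control, and GATA23 15.6 FPKM in arf7 and 4.77 FPKM in the control. The auxin-conjugating enzyme genes GH3.5 and GH3.6 had 10.7 and 8.84 FPKM in arf7, against 2.86 and 2.28 FPKM in the control. None of these 5 is listed. IAA19 (AT3G15540), a repressor gene that ARF7 is known to activate, had 14.7 FPKM in arf7 and 18.1 FPKM in the control, and the expansin genes EXPA17 and EXPA14 had 367 and 33.7 FPKM in arf7, against 480.1 and 36.3 FPKM in the control. LRP1, a lateral root primordium gene, had 9.16 FPKM in arf7 and 13.5 FPKM in the control. The members thus divided into 6 above the control, all past 2-fold, and 4 below it, none past 2-fold. All 6 above it were under 5 FPKM in the control and became members through arf7 alone. The 4 below it reached 5 FPKM in both lines. The median log2 ratio of the 10 members was 1.56, and it was 0.55 when genes of any level above 0 were included. The division and the median therefore depend on the minimum.

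ARF proteins bind the auxin response element TGTCTC, so the 250 bases before the annotated start of each protein-coding gene were searched for these letters on both strands. They stood in 8.29% of 350 promoters of loci listed as higher, in 11.5% of 495 promoters of loci listed as lower, in 10.4% of 11227 promoters of members not listed and in 10.9% of all 27444 promoters. The shares thus lay between 8.29% and 11.5%, and a match is a description of letters and not a site. The 4 windows below are shown because they belong to genes of different roles in these results whose letters include the element, in capitals (TGTCTC, or GAGACA where it reads on the other strand). They come from the RefSeq assembly TAIR10.1, each on the plus strand and read 5′ to 3′ up to the base before the gene start. IAA19, with 3 elements, lies at chr3:5263751-5264000. PIN2, the auxin efflux carrier gene of epidermis and cortex, lies at chr5:23100266-23100515. CDT1A, a replication licensing gene, lies at chr2:13328612-13328861, and EXPA7, an expansin gene of root hairs, lies at chr1:4276255-4276504.
IAA19: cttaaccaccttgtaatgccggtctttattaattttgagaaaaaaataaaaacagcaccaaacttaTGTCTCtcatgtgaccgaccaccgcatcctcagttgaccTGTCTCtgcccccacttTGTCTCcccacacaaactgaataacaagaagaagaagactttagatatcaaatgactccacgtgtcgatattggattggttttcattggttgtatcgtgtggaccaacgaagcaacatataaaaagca
PIN2: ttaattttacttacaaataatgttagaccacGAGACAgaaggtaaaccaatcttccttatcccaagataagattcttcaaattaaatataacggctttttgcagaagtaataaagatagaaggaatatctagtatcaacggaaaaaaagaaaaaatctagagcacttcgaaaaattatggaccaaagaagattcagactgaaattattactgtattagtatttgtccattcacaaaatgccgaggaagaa
CDT1A: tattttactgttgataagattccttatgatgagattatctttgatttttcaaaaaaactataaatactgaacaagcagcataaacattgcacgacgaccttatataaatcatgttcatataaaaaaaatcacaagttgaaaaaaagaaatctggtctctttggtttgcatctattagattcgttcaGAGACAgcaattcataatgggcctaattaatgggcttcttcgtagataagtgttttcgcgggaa
EXPA7: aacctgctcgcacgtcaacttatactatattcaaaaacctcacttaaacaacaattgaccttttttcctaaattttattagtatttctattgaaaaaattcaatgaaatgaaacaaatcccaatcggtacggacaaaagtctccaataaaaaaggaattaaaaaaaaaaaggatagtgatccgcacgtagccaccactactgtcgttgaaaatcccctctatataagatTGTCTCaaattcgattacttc
The 4 genes went different ways. IAA19 is not listed, with a log2 ratio of -0.28. PIN2 (AT5G57090) fell to 6.83 FPKM in arf7, against 61.4 FPKM in the control, and CDT1A (AT2G31270) fell to 0.821 FPKM in arf7, against 15.6 FPKM in the control. EXPA7 (AT1G12560) rose to 401 FPKM in arf7, against 165 FPKM in the control.

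The members farthest from the control were next ranked by log2 ratio, leaving out loci at 0 in a line. The 10 highest ran from 4.17 to 4.70 and the 10 lowest from -6.33 to -5.17, and 2 of each are listed. AT5G10580, a gene of unknown function, rose to 91.2 FPKM in arf7, with 131 FPKM in potent and 2.55 FPKM in the control. IGMT3 (AT1G21110), a methyltransferase gene of the indole glucosinolate family, rose to 44.5 FPKM in arf7, with 51.7 FPKM in potent and 1.24 FPKM in the control. Its neighbour and close copy IGMT2 had 24.8 FPKM in arf7, 11.3 FPKM in potent and 0.341 FPKM in the control, and reads of these copies may be split between them.

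The other 7 of the highest are not listed. The remorin gene AT4G00670 had 53.3 FPKM in arf7, 32.0 FPKM in potent and 1.18 FPKM in the control. IPMI1 (AT3G58990), an isomerase subunit gene of methionine chain elongation for glucosinolates, had 32.1 FPKM in arf7, 129.9 FPKM in potent and 0.428 FPKM in the control. UMAMIT30, of the family of amino acid exporters, had 49.3 FPKM in arf7, 97.2 FPKM in potent and 1.58 FPKM in the control. All 3 were low in the control and moderately abundant in both altered lines. The glutathione transferase gene GSTF6 had 30.0 FPKM in arf7, 40.3 FPKM in potent and 0.658 FPKM in the control, and the vacuolar iron transporter family gene AT3G25190 had 24.6 FPKM in arf7, 113 FPKM in potent and 0.403 FPKM in the control. PRA1.G1 had 17.7 FPKM in arf7, 13.3 FPKM in potent and 0.0103 FPKM in the control. AT5G46530, of the AWPM-19-like family, had 36.7 FPKM in arf7 and 43.4 FPKM in potent, with a log2 ratio of 4.17 for arf7 over the control.

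At the other end, the chitinase family gene AT2G43610 fell to 3.61 FPKM in arf7, with 1.01 FPKM in potent and 212 FPKM in the control. BS1 (AT1G74500), a small helix-loop-helix protein gene that promotes growth downstream of brassinosteroids and is named PRE3 in the authors' deposited table, fell to 3.06 FPKM in arf7, with 0.0985 FPKM in potent and 154 FPKM in the control. The other 8 are not listed. GATA2 (AT2G45050), a transcription factor gene, stood lowest of all, with 0.00520 FPKM in arf7, 0 in potent and 79.7 FPKM in the control. AT5G39240, described as similar to the growth regulator UPBEAT, had 1.87 FPKM in arf7, 0.0988 FPKM in potent and 160.1 FPKM in the control. AT1G32583, described as a tapetum determinant protein, had 0.209 FPKM in arf7, 0.676 FPKM in potent and 76.7 FPKM in the control. All 3 were readily detected in the control and near or at the bottom of the scale in arf7.

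GRI (AT1G53130), a cell death regulator gene, had 0.490 FPKM in arf7, 0.0579 FPKM in potent and 62.0 FPKM in the control. AT2G41800, a DUF642 family gene, had 0.430 FPKM in arf7, 4.26 FPKM in potent and 58.8 FPKM in the control, and the thaumatin family gene AT1G73620 had 0.479 FPKM in arf7, 0 in potent and 57.6 FPKM in the control. The microRNA loci MIR166b and MIR822 had 3.85 and 3.67 FPKM in arf7, 0 and 0.321 FPKM in potent, and 197 and 167 FPKM in the control; such short transcripts give unsteady FPKM values. The arf7 and potent values are set against the same control value, so they are not independent of each other.

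**Figure D3:**
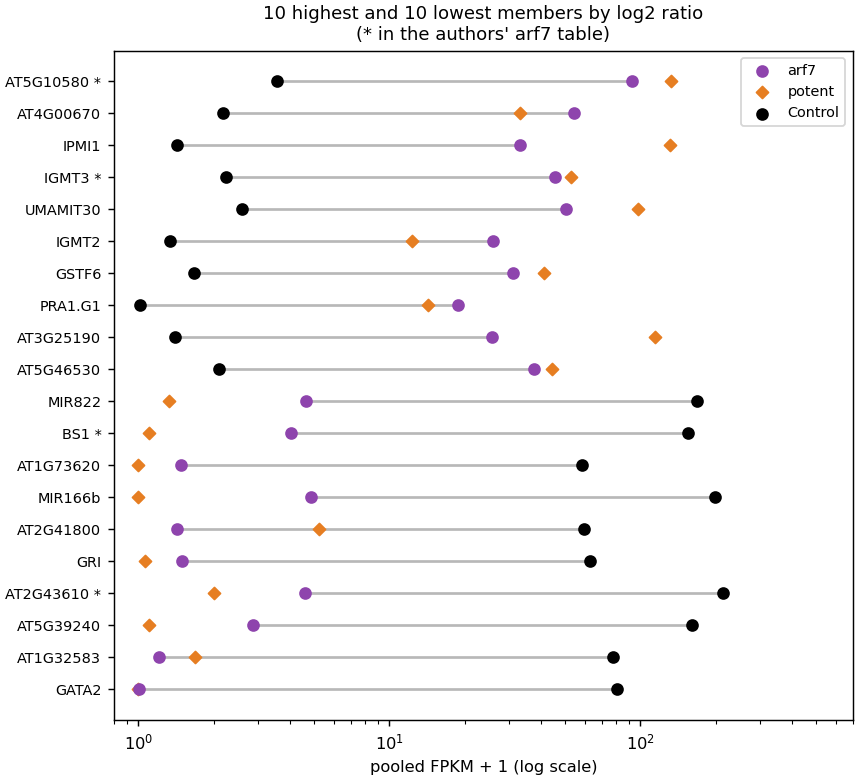
Pooled FPKM (horizontal, log scale, 1 added) of the 10 highest and 10 lowest members by log2 ratio in arf7 (purple circles), potent (orange diamonds) and the control (black circles), with a grey line from arf7 to the control. In GATA2 the potent point lies behind the arf7 point. Asterisks mark the 4 genes in the authors' arf7 table.

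Genes for ribosomal proteins were mostly lower in arf7. Of 294 members described as ribosomal proteins, 61 fell, none rose and 233 are not listed, with a median log2 ratio of -0.98 against -0.04 over all members. Their FPKM summed to 46799 in arf7 and 99888 in the control, and 258 of the 294 lay below the control. The most abundant that fell included the small subunit gene RPS23B (AT5G02960), with 545 FPKM in arf7 and 1485 FPKM in the control, and the large subunit gene RPL28A (AT2G19730), with 537 FPKM in arf7 and 1402 FPKM in the control. RPL17A (AT1G27400) fell to 114 FPKM in arf7, against 377 FPKM in the control. The highest ratio of the family, 2.64, belonged to PSRP3/1, a ribosomal protein of plastids, with 21.1 FPKM in arf7 and 2.56 FPKM in the control. Translation factors, 94 members, had 2 listed as higher and 2 as lower and a median of -0.30.

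Histones had the lowest median of the families with at least 10 members. Of 36 core histone members, 15 fell and 35 lay below the control, with a median log2 ratio of -1.93. AT1G09200, a histone H3 gene in an entry joined with its neighbour, fell to 45.4 FPKM in arf7, against 539 FPKM in the control. The histone H3 gene AT5G10400 fell to 4.87 FPKM in arf7, against 159 FPKM in the control, and the H2B gene HTB2 (AT5G22880) fell to 3.74 FPKM in arf7, against 102 FPKM in the control. HTA6, HTA2 and HTA7, genes for H2A, fell to 54.3, 53.3 and 27.2 FPKM in arf7, against 415, 194 and 106 FPKM in the control. Copies of H3 and H4 are nearly identical, so their single values are uncertain. HTR12, the centromeric H3 variant, had 0.138 FPKM in arf7 and 8.94 FPKM in the control and is not listed.

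Among genes of the cell cycle, 22 of 51 in the table reached 5 FPKM in a line. CDT1A and CYCA3;2 fell, none rose and 20 are not listed, with a median log2 ratio of -0.46. CYCA3;2 (AT1G47210), a cyclin gene of the replication phase, fell to 2.14 FPKM in arf7, against 23.5 FPKM in the control. The unlisted PCNA2, CDKB1;1 and CYCA3;1 lay lower too, at 4.78, 4.74 and 0.628 FPKM in arf7, against 17.2, 13.2 and 5.10 FPKM in the control. The cyclin D genes stayed close, CYCD3;1 with 44.0 FPKM in arf7 and 48.3 FPKM in the control, and CYCD3;2 with 19.7 FPKM in arf7 and 19.6 FPKM in the control.

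Tubulin and chaperonin genes were mostly lower as well. Of 17 tubulin genes 7 fell and none rose, with a median of -0.84. TUB5 (AT1G20010) fell to 40.5 FPKM in arf7, against 221 FPKM in the control, TUB1 fell to 109 FPKM in arf7, against 345 FPKM in the control, and TUA6 fell to 292 FPKM in arf7, against 748 FPKM in the control. TUB2 and TUB3 fell as well but are near-identical copies with the same gene name in the authors' deposited table. Of 15 chaperonin genes 6 fell, all subunits of the cytosolic ring that folds tubulin and actin, among them CCT7 (AT3G11830) with 24.0 FPKM in arf7 and 75.6 FPKM in the control, and the family median was -1.27. Kinesins and microtubule motors, 8 members, had none listed, 5 above the control and a median of 0.15. Proteasome subunits, 32 members, had no listed gene and a median of -0.35, with 30 below the control. Mitochondrial electron transport genes, 49 members, had none listed and a median of -0.01.

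**Figure D4:**
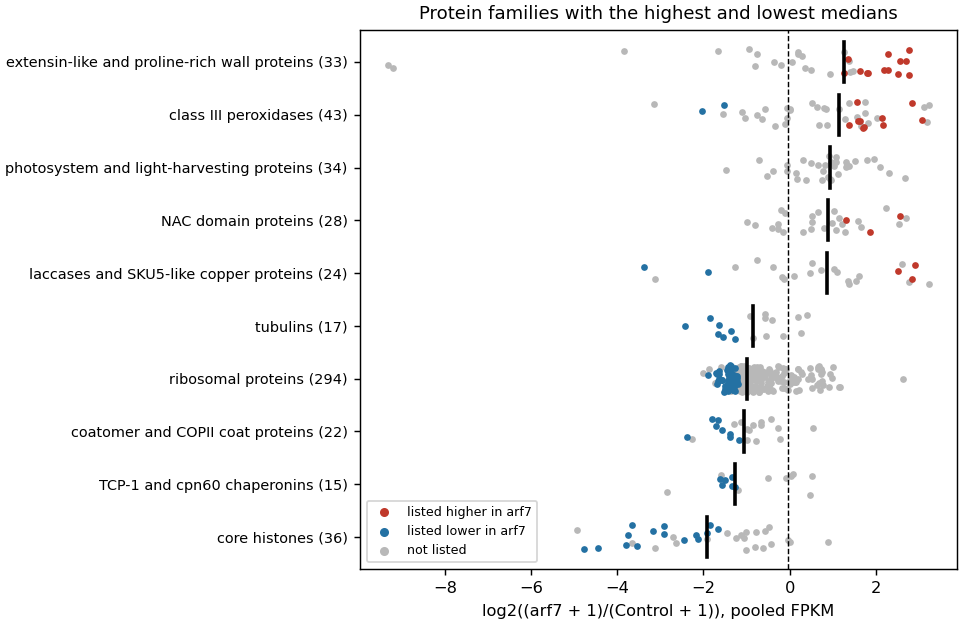
Log2 ratio of arf7 to the control (horizontal) for the members of the 5 protein families with the highest and the 5 with the lowest medians (rows, with their number), coloured by the authors' table, with a black bar at each median and a dashed line at the median of all members, -0.04. Histones, chaperonins, vesicle coats, ribosomal proteins and tubulins lie mostly to the left and hold no locus listed as higher.

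Genes of the secretory pathway were also mostly lower in arf7. Of 17 members of a list for folding and translocation in the endoplasmic reticulum, 11 fell, none rose and 6 are not listed, with a median log2 ratio of -1.44. The list was drawn up after values of these data had been seen. Protein disulfide isomerases made up 6 of the 11. PDIL1-1 (AT1G21750) fell to 183 FPKM in arf7, against 814 FPKM in the control, and PDIL1-3 (AT3G54960) fell to 43.4 FPKM in arf7, against 348 FPKM in the control. The chaperone genes BIP2 and BIP1, close copies, fell to 83.1 and 80.0 FPKM in arf7, against 328 and 229.6 FPKM in the control. CNX1 (AT5G61790), a calnexin, fell to 166 FPKM in arf7, against 504 FPKM in the control, and SHD, the HSP90 of this compartment, fell to 138 FPKM in arf7, against 440.5 FPKM in the control. ERO1, an oxidase that serves the isomerases, was the only member above the control, with 10.8 FPKM in arf7 and 8.68 FPKM in the control. BIP3, the form best known as a stress marker of this compartment, stayed under the minimum with 2.19 FPKM in arf7 and 1.72 FPKM in the control.

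Coatomer and COPII coats bud the vesicles that run between this compartment and the Golgi. Of 22 coatomer and COPII coat members 8 fell, none rose and 21 lay below the control, with a median of -1.06. The coatomer genes AT1G30630 (epsilon subunit) and AT1G62020 (alpha subunit) fell to 151 and 13.4 FPKM in arf7, against 395 and 46.0 FPKM in the control. AT1G79990, a coatomer beta subunit, fell to 6.74 FPKM in arf7, against 39.3 FPKM in the control.

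Sterol synthesis, another pathway of that membrane, had all 18 genes of its list among the members, of which 8 fell, none rose and 10 are not listed, and the median log2 ratio was -1.12. This list too was drawn up after values had been seen. DWF1 (AT3G19820), a reductase gene in an entry joined with a neighbour, fell to 77.1 FPKM in arf7, against 443 FPKM in the control. SMT3 and SMT2, sterol methyltransferases, fell to 117 and 30.9 FPKM in arf7, against 431 and 109.7 FPKM in the control. CPI1 (AT5G50375), which opens the ring of cycloeucalenol, fell to 8.65 FPKM in arf7, against 80.7 FPKM in the control, and FPS2, which makes farnesyl diphosphate upstream, fell to 10.1 FPKM in arf7, against 60.1 FPKM in the control. The squalene epoxidase gene SQE3 alone lay above the control, with 20.6 FPKM in arf7 and 6.12 FPKM in the control, and is not listed.

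Brassinosteroids are made from these sterols, and 24 members of their list split into 1 that rose, 5 that fell and 18 not listed, with a median of -0.74. Besides DWF1, DWF5 and BS1, the final enzyme gene BR6OX2 (AT3G30180) fell to 15.4 FPKM in arf7, against 38.5 FPKM in the control, and the receptor gene BRI1 (AT4G39400) fell to 8.42 FPKM in arf7, against 22.8 FPKM in the control. BAT1 (AT4G31910), an acyltransferase gene that inactivates the hormone, rose to 29.9 FPKM in arf7, against 1.89 FPKM in the control. PRE6, a relative of BS1, had 0.419 FPKM in arf7 and 13.3 FPKM in the control without being listed. In phosphocholine synthesis, XPL1 (AT3G18000) fell to 9.05 FPKM in arf7, against 220.2 FPKM in the control, while its relative PMEAMT had 169 FPKM in arf7 and 77.8 FPKM in the control and is not listed.

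Genes for defence metabolites were mostly higher in arf7. Of 17 members of indole glucosinolate synthesis, 7 rose, 1 fell and 9 are not listed, with a median log2 ratio of 1.79. CYP83B1 (AT4G31500), which commits indole intermediates to the pathway, rose to 83.3 FPKM in arf7, against 12.3 FPKM in the control. SUR1, GGP1, SOT16 and GSTF9, which act after it, rose to 47.1, 169.8, 150.2 and 1059.5 FPKM in arf7, against 12.6, 62.0, 51.7 and 305 FPKM in the control. CYP81F3 (AT4G37400), which modifies the finished compound, fell to 7.47 FPKM in arf7, against 41.2 FPKM in the control. The regulator genes MYB51 and MYB122 had 13.3 and 12.8 FPKM in arf7, against 2.08 and 3.13 FPKM in the control, and MYB34 had 21.3 FPKM in arf7 and 25.3 FPKM in the control, none of them listed. The core steps after CYP83B1 and the IGMT methyltransferases thus stood higher, as did the regulator genes MYB51 and MYB122, while MYB34 did not.

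The pathway from methionine was lower in level. Of its 17 genes with values, 8 reached 5 FPKM in a line, of which IPMI2 (AT2G43100, 8.17 FPKM in arf7, 0 in the control) and the regulator gene MYB28 (AT5G61420, 21.2 FPKM in arf7, 1.71 FPKM in the control) are listed as higher. Their median log2 ratio was 2.66, and 1.80 with genes of any level above 0. Among triterpene genes of root clusters, 6 of 12 reached 5 FPKM and all 6 were past 2-fold higher, against 16.0% of all members. THAH and THAS, at 1.07 and 4.37 FPKM in the control, became members through arf7 alone and could enter only if higher there. The median log2 ratio of the 6 was 2.24, and 2.00 with genes of any level above 0. THAD (AT5G47990), of the thalianol pathway, rose to 28.4 FPKM in arf7, against 5.81 FPKM in the control.

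A list of amino acid transporters held 7 listed increases and no listed decrease. Of 36 genes with values, 22 were members, of which 7 rose, none fell and 15 are not listed, and 19 lay above the control. The median log2 ratio was 2.00, and 1.24 with genes of any level above 0. Of the 7 that rose, UMAMIT27, UMAMIT28, AAP2 and AAP4 were under 5 FPKM in the control and became members through arf7 alone. Such genes could enter only if higher in arf7, so the count of increases depends on the minimum. Of the UMAMIT exporter family, UMAMIT18 (AT1G44800) rose to 214 FPKM in arf7, against 20.7 FPKM in the control, and UMAMIT11 (AT2G40900) rose to 78.2 FPKM in arf7, against 11.3 FPKM in the control. The wider family described as EamA-like and UMAMIT transporters, 24 members, had 5 that rose and 2 that fell, 11 above and 13 below the control and a median of -0.08. UMAMIT33 went the other way without being listed, with 6.28 FPKM in arf7 and 62.0 FPKM in the control. The permease gene AAP2 (AT5G09220) rose to 62.9 FPKM in arf7, against 4.10 FPKM in the control, and AAP4 rose to 35.9 FPKM in arf7, against 3.20 FPKM in the control. GDU3 (AT5G57685), of the family of glutamine dumpers that promote export, rose to 157 FPKM in arf7, against 35.4 FPKM in the control. The import carrier gene LHT1, the most abundant not listed, had 91.3 FPKM in arf7 and 74.8 FPKM in the control.

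Genes of mineral nutrition showed listed increases and no listed decrease among the members of the 3 lists examined. For nitrate, 3 of 17 members rose: the transporter genes NRT1.1 (AT1G12110) and NRT1.2 (AT1G69850) to 111 and 37.1 FPKM in arf7, against 26.9 and 8.40 FPKM in the control, and the glutamine synthetase gene GLN1;2 (AT1G66200) to 596 FPKM in arf7, against 199 FPKM in the control. The median of this list was 0.74. For iron, 3 of 10 members rose, with a list median of 1.36. F6'H1 (AT3G13610), which makes coumarins that mobilise iron, rose to 137 FPKM in arf7, against 39.3 FPKM in the control, and the nicotianamine synthase gene NAS4 and the transporter gene OPT3 rose to 31.0 and 28.3 FPKM in arf7, against 4.63 and 4.92 FPKM in the control. The iron reductase gene FRO2 is listed at 0 in both lines. For phosphate, 2 of 13 members rose, with a median of 0.26. PHO1 (AT3G23430, in a joined entry) rose to 43.5 FPKM in arf7, against 3.72 FPKM in the control, and PHO2, which restrains it, rose to 12.6 FPKM in arf7, against 1.99 FPKM in the control. PHO1 is also a marker of the pericycle, whose summed markers were given above. NAS4, OPT3, PHO1 and PHO2 were under 5 FPKM in the control and became members through arf7 alone. Such genes could enter only if higher in arf7, so the counts of increases depend on the minimum. With genes of any level above 0 the medians were 0.74 for nitrate, 1.09 for iron and 0.30 for phosphate.

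Genes of lignin synthesis, xylem differentiation and the Casparian strip were mostly higher in arf7, beside higher summed xylem and endodermis markers. Of 13 members of phenylpropanoid and lignin synthesis, 6 rose, none fell and 7 are not listed, with a median log2 ratio of 1.30, and 12 were past 2-fold. That list was also drawn up after values had been seen. The 6 that rose were PAL4, 4CL1, HCT, CYP98A3, LysoPL2 and OMT1. C4H, the enzyme between PAL and 4CL, had 659.5 FPKM in arf7 and 282 FPKM in the control and is not listed. 4CL1 (AT1G51680) rose to 544 FPKM in arf7, against 144 FPKM in the control, and CYP98A3 (AT2G40890) rose to 651 FPKM in arf7, against 204 FPKM in the control. CCoAOMT1, the most abundant member, had 6421 FPKM in arf7 and 2635 FPKM in the control and is not listed. The isoform 4CL3, known for flavonoid supply, lay near the control with 33.4 FPKM in arf7 and 40.2 FPKM in the control.

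In xylem differentiation 10 of 27 members rose and none fell, and 26 lay above the control, with a median log2 ratio of 1.99. PAL4, which rose, and the unlisted PAL1, C4H and CCR1 are also in the phenylpropanoid and lignin list. The laccase genes LAC17 (AT5G60020) and IRX12, which polymerise lignin, rose to 53.7 and 55.0 FPKM in arf7, against 6.63 and 7.64 FPKM in the control. TED6 (AT1G43790), a membrane protein gene of vessel elements, rose to 59.3 FPKM in arf7, against 7.09 FPKM in the control, and the xylan synthesis genes IRX9 and IRX10 rose to 29.7 and 34.7 FPKM in arf7, against 7.05 and 9.44 FPKM in the control. Of the 27, 25 were past 2-fold higher. The other 2 were the cellulose synthase gene IRX5, with 1192 FPKM in arf7 and 852 FPKM in the control, and LHW, the partner of TMO5, which had 13.1 FPKM in arf7 and 16.0 FPKM in the control. BFN1 and MC9, enzymes of cell clearance, had 15.8 and 56.4 FPKM in arf7, against 0.712 and 5.90 FPKM in the control, and are not listed.

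Of 11 members of the suberin and Casparian strip list 2 rose, with a median of 1.28. CASP4 (AT5G06200), a scaffold protein of the Casparian strip, rose to 995 FPKM in arf7, against 313 FPKM in the control. The unlisted strip genes CASP1, PER64 and ESB1 had 3353, 1421 and 755 FPKM in arf7, against 1375, 478 and 249 FPKM in the control. MYB36, the factor that switches the strip genes on, had 95.4 FPKM in arf7 and 83.1 FPKM in the control. Suberin genes were mostly under the minimum. GPAT5 and GPAT7 are listed at 0 in both lines, CYP86A1 had 0 FPKM in arf7 and 0.0161 FPKM in the control, and FAR4 had 0.0641 FPKM in arf7 and 0.00418 FPKM in the control. ASFT and KCS20, the suberin genes that were members, had 123 and 48.2 FPKM in arf7, against 56.8 and 67.3 FPKM in the control, and are not listed. Among phloem genes BAM3 (AT4G20270), a receptor kinase, rose to 25.6 FPKM in arf7, against 9.48 FPKM in the control, and was the 1 listed of 9 members.

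**Figure D5:**
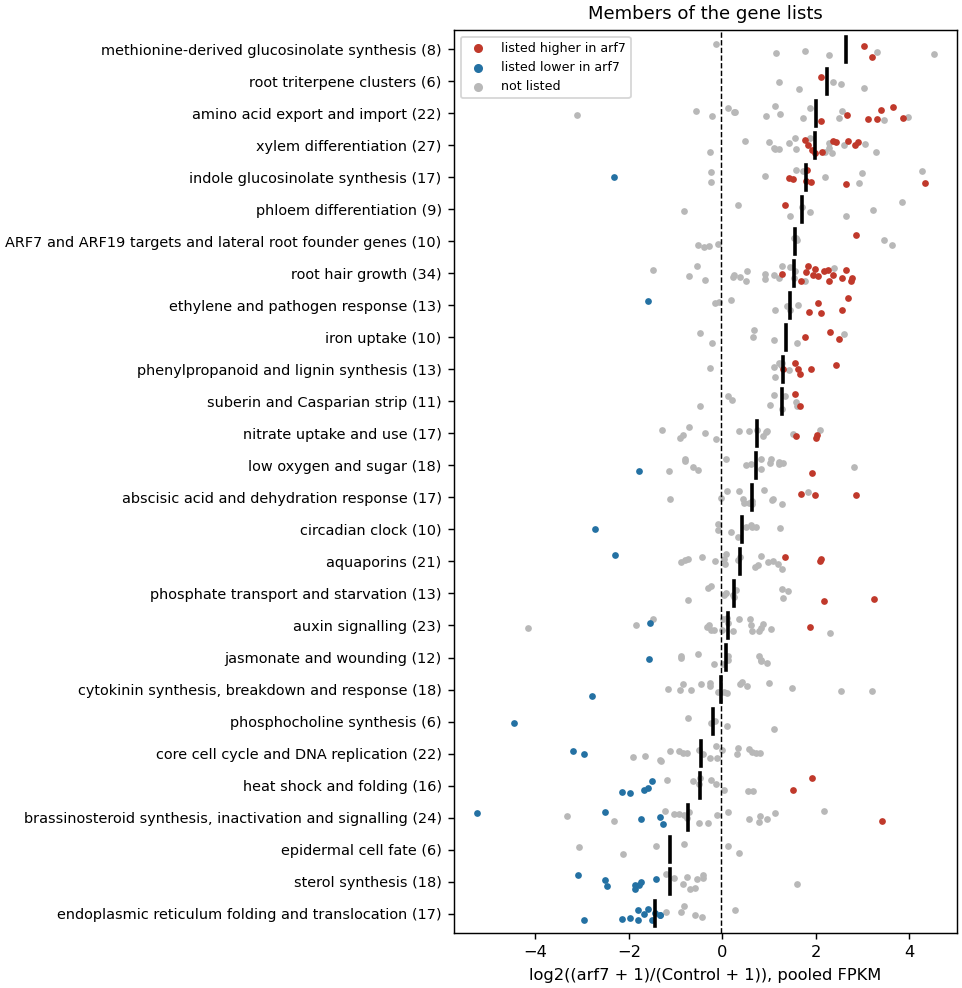
Log2 ratio of arf7 to the control (horizontal) for the members of the 28 gene lists (rows, with their number, ordered by median), coloured by the authors' table, with a black bar at each median and a dashed line at the median of all members, -0.04. Glucosinolate, triterpene, amino acid transport and xylem genes lie at the top and sterol and endoplasmic reticulum genes at the bottom. The sterol, endoplasmic reticulum and lignin lists were drawn up after values had been seen.

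By count, root hair genes were the largest set of listed increases in a list. Of 34 members 15 rose, or 44.1% against 2.78% over all members. None fell and 19 are not listed, with a median log2 ratio of 1.54. The 6 hair markers that rose, given above, are among the 15 that rose here. The phenylpropanoid and lignin list had a larger share listed as higher, 46.2% of its 13 members. That list, though, was drawn up after values of these data had been seen. The bHLH factor gene LRL3 (AT5G58010) rose to 169.7 FPKM in arf7, against 40.2 FPKM in the control. Wall genes followed, with XTH14 (AT4G25820) at 589 FPKM in arf7 and 84.6 FPKM in the control, RHS13 (AT4G02270) at 771 FPKM in arf7 and 114 FPKM in the control, and AGP3 (AT4G40090) at 779 FPKM in arf7 and 161 FPKM in the control. COW1 (AT4G34580), a phosphatidylinositol transfer protein gene of growing tips, rose to 99.2 FPKM in arf7, against 14.9 FPKM in the control. ROP2 and SCN1, which set the site of the hair, had 177 and 178 FPKM in arf7, against 137 and 151 FPKM in the control, and are not listed. The cell fate genes had no listed member among 6, with 2 above the control, 4 below it and a median of -1.11. WER, the factor of hairless fate, had 0.648 FPKM in arf7 and 12.8 FPKM in the control. CPC lay lower too, with a log2 ratio of -1.42. GL2 and TTG1 lay above the control, with 60.1 and 27.3 FPKM in arf7, against 46.7 and 24.9 FPKM in the control. WER, CPC, GL2 and TTG1 are the 4 markers of hairless epidermis summed above, so these markers did not share a direction.

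Related wall families differed in direction. Of 33 members described as extensin-like, proline-rich or extensin-related, 13 rose and none fell, with a median of 1.27, or 0.47 with loci of any level above 0. EXT13 (AT5G35190) rose to 300.1 FPKM in arf7, against 51.3 FPKM in the control. The near-identical extensin loci AT1G23720 and AT3G28550 are listed at 0 in arf7 with 647 and 592 FPKM in the control, which may be failed estimates, and are not in the authors' table. Of 43 class III peroxidases, which couple wall polymers, 10 rose and 2 fell, with a median of 1.15, or 0.56 with loci of any level. AT4G26010 rose to 872 FPKM in arf7, against 193 FPKM in the control, while PER16 (AT2G18980) fell to 126 FPKM in arf7, against 519.9 FPKM in the control. Laccases and SKU5-like copper proteins had 3 of 24 that rose and 2 that fell, with a median of 0.88, or 0.08 with loci of any level. Expansins, which loosen walls, were mixed, with 2 of 19 that rose and 4 that fell. Of 40 pectate lyases and polygalacturonases, which cut pectin, 6 rose and 6 fell, with 24 below the control and a median of -0.30. Of 37 pectin methylesterases and inhibitors 3 rose and 7 fell, with 23 above the control and a median of 0.53.

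Major facilitator and peptide or nitrate transporters, 71 members, had 8 that rose and 6 that fell, with a median of 0.30. Of 28 NAC factors 3 rose and none fell, with a median of 0.89, among them NAC083 (AT5G13180), a regulator gene of vessel formation, with 185 FPKM in arf7 and 73.5 FPKM in the control. Photosystem and light-harvesting proteins had a median of 0.93 over 34 members, none of them listed, and PSBQA had 40.1 FPKM in arf7 and 10.7 FPKM in the control. Water channels had 3 that rose and 1 that fell of 21. The vacuolar channels TIP2;2 (AT4G17340) and TIP2;3 (AT5G47450) rose to 535 and 328 FPKM in arf7, against 122 and 75.8 FPKM in the control, and NIP1;1 (AT4G19030) fell to 104 FPKM in arf7, against 512 FPKM in the control.

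Members of the abscisic acid and ethylene lists lay mostly above the control. For abscisic acid and dehydration 3 of 17 members rose and none fell, with 15 above the control and a median of 0.64. The dehydrin gene COR47 (AT1G20440) reached 992 FPKM in arf7, against 309 FPKM in the control. For ethylene and pathogen response 5 of 13 rose and 1 fell, with 10 above the control. The median was 1.45, or 0.88 with genes of any level above 0. MYB15, RBOHD and PAD3, which rose, were under 5 FPKM in the control and became members through arf7 alone. The factor gene ERF5 rose to 92.8 FPKM in arf7, against 24.9 FPKM in the control. ERS1 (AT2G40940), an ethylene receptor, fell to 17.5 FPKM in arf7, against 54.4 FPKM in the control. PAD3 (AT3G26830), the last step to the antimicrobial camalexin, rose to 21.4 FPKM in arf7, against 2.77 FPKM in the control.

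The remaining lists had at most 1 listed gene per direction, apart from the heat shock and folding list. Jasmonate genes had AOC4 lower in a joined entry (26.4 FPKM in arf7, 79.9 FPKM in the control) and 11 not listed. Cytokinin genes had ARR3 (AT1G59940), a response repressor, lower at 11.1 FPKM in arf7 and 82.0 FPKM in the control. The clock list had GRP7 (AT2G21660), an RNA-binding protein gene under clock control, lower at 129 FPKM in arf7 and 858 FPKM in the control, while its close relative GRP8 had 299.8 FPKM in arf7 and 319 FPKM in the control. Low oxygen and sugar genes had SUS1, a sucrose synthase gene, higher and DIN10 lower. In the heat shock and folding list HSFB1 (AT4G36990) rose to 141 FPKM in arf7, against 36.3 FPKM in the control, the HSP70 gene AT3G12580 rose to 31.1 FPKM in arf7, against 10.3 FPKM in the control, and the 5 that fell are endoplasmic reticulum genes counted above.

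Among the most abundant listed loci, GASA4 (AT5G15230), a small secreted peptide gene regulated by gibberellin, fell to 266 FPKM in arf7, against 2184 FPKM in the control. AGP9 (AT2G14890), an arabinogalactan protein gene, fell to 633 FPKM in arf7, against 2047 FPKM in the control, and MSRB9 (AT4G21850) fell to 479 FPKM in arf7, against 1236 FPKM in the control. The other 7 of the 10 most abundant that fell were ribosomal protein genes. XTH15 (AT4G14130), a wall enzyme gene, rose to 986 FPKM in arf7, against 232 FPKM in the control, and the RNA locus AT1G10682, with no known product, rose to 676 FPKM in arf7, against 235 FPKM in the control.

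Members at exactly 0 in a line numbered 50 for arf7 and 58 for the control, of which 7 and 10 are listed. The highest of them are the mitochondrial locus ATMG00020, with 0 in arf7 and 4202 FPKM in the control, and AT2G06855, an RNA locus with 262 FPKM in arf7 and 0 in the control, neither of them listed. The tRNA loci AT1G28720 and AT3G12585 had 127 and 86.4 FPKM in arf7 and 0 in the control. At the edge of the minimum, AT4G30370 entered with 5.01 FPKM in arf7 and 1.60 FPKM in the control, and AT5G50350 with 1.70 FPKM in arf7 and 5.01 FPKM in the control. Just outside it lay AT1G32760, with 1.81 FPKM in arf7 and 5.00 FPKM in the control, and TAF15, with 5.00 FPKM in arf7 and 4.38 FPKM in the control, both a little under the minimum before rounding.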

How the data were processed

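The series holds total RNA from oscillation zones, with 3 samples each of arf7, potent and the control. Per the submitters' processing notes, the tools were Bowtie2, Bowtie, TopHat2, TopHat, Cufflinks and Cuffdiff on the genome build TAIR10; no source used here gives versions, roles or settings. The authors deposited 1 pooled value per locus and line in a table whose header names no unit. It was taken as FPKM because Cufflinks and Cuffdiff are named and the values are not whole numbers (they sum to 850089 in arf7 and 905924 in the control). The authors' second deposited table holds 995 arf7 entries, each with a deposited q-value and log2 fold change, 39 of them joining several genes. Those log2 fold changes match the log2 of line over control from the deposited FPKM values to within 1e-05, and 162 are text because a line is at 0. The depth is unknown, and a 0 can be a failed estimate. The library protocol named in the labels does not mark strand, so overlapping genes cannot be told apart.

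Members had at least 5 FPKM in arf7 or the control. Log2 ratios used a pseudocount of 1, which understates changes of low genes, and differences of at least 2-fold were counted. No test was run, since there are no values per sample, and the authors' calls were used as they are. A locus outside their table is not shown to be unchanged. Scripts used Python 3.11.15, pandas 2.3.3 and numpy 2.4.6 and were checked on simulated data.

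Names, product descriptions and promoters came from the RefSeq annotation of TAIR10.1, matched by locus identifier, which named 12627 of the 12716 members and left 89 without a name. The nuclear chromosome sequences of TAIR10.1 are those of TAIR10, and coordinates are those of TAIR10.1. The 28 gene lists and 10 marker lists held 821 entries, of which 37 matched no locus, and 42 families were taken from product descriptions. Unless another selection is named, lists and families are counted over members. Some genes stand in several lists or marker lists, so the counts are not independent of each other. Members, lists and families were chosen with earlier results of these data known, and 3 lists were added after values were seen (lignin, endoplasmic reticulum folding, sterols). Genes were named by a rule covering ARF7 and IAA18, the 10 members at each end of the ranking, the 10 most abundant listed loci per direction, listed and up to 4 abundant other members of each list, 3 members of each of the 5 families with the highest and the lowest medians, members at 0 in a line, and loci at the edge of the minimum. Genes named beyond it in the report illustrate their group and were chosen after their values were seen.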

Additional observations from a re-analysis of the deposited data

How the results depend on the processing

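Counts of members past 2-fold stayed within 1.5 times of the main count under a pseudocount of 0.1, either rescaling, a minimum of 10, no minimum or loci above 0 in both lines, from 1521 to 2809 higher and from 1522 to 2443 lower in arf7. Listed members numbered 342 to 440 higher and 487 to 555 lower. Setting the median ratio to 1 shifted all log2 ratios by 0.04 and equal sums by 0.09, so medians within that distance of 0 have no direction. Medians of gene lists moved in these cases, and the cause was not tested. With no minimum, the founder gene list stood at 0.55, methionine-derived glucosinolates at 1.80, amino acid transporters at 1.24, phloem at 0.60, epidermal fate at -0.50, laccases at 0.08, peroxidases at 0.56 and extensins at 0.47. With a minimum of 10 the founder gene list stood at 0.71 and methionine-derived glucosinolates at 1.77, and with a pseudocount of 0.1 methionine-derived glucosinolates stood at 3.36. The element TGTCGG in place of TGTCTC was in 4.24% of promoters listed as lower, 4.75% of members not listed and 4.16% of all promoters. It was in 21 of the 350 promoters listed as higher, the highest share of the 4 classes, where TGTCTC had its lowest. The core TGTC was in 76.0% of promoters listed as higher, 74.7% of those listed as lower, 74.7% of members not listed and 74.8% of all promoters. For TGTCTC, extending the window to 50 bases after the start gave 12.0%, 15.4%, 13.2% and 14.2% in the same order. No paired analysis was possible because each line has 1 pooled value per locus, so no replicate could be left out and no fit per sample was run. Pooled FPKM without depth limits what can be said of loci near the minimum.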
